A study of Mus musculus with 84 samples.

Results

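Interferon-stimulated genes are the genes a cell switches on after type I interferon (the interferon-α/β family) or interferon-γ binds its receptor. The set described here was a named list of 41 mouse symbols known to respond to interferon, and it makes up 41 of the 48794 genes listed. All 41 were found and all 41 passed the filter on low values in both tissues. The animals were male C57BL/6J mice with diet-induced obesity (DIO), kept 1 per cage on a 60% high-fat diet and 22 weeks old when dosing began. They received 1 subcutaneous injection a day for 30 days of vehicle, of semaglutide (doses of 20 and 100 nmol/kg) or of BI 456906 (doses of 3, 10, 20 and 30 nmol/kg). BI 456906 acts on both the receptor of glucagon, called GCGR, and that of the gut hormone GLP-1, called GLP-1R, and semaglutide acts on the GLP-1R alone. All groups shared the diet, the sex and the strain, and no lean or untreated group was included. The RNA libraries came from liver (42) and from epididymal white adipose tissue, called eWAT (42), with 6 mice in each of 7 groups per tissue. Mice are named here by the number in the library's label, which does not tie a liver library to an eWAT library of the same animal.

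Type I interferon acts through the kinases Jak1 and Tyk2, and through a complex holding Stat2 and Irf9 that binds the interferon-stimulated response element (ISRE). Interferon-γ acts mainly through the gamma-activated site (GAS), and the factor Irf1 then carries the signal on. The members fall into 7 roles. Transcription factors were Irf1, Irf7, Irf9 and Stat2 (4 members). Antiviral effectors (14 members) included Ifit1, Ifit2, Ifit3 and Ifit3b, which bind foreign RNA, Isg15, a ubiquitin-like modifier, Usp18, the protease that removes Isg15, and Rsad2, known as viperin. The 2-5A synthetase family, which answers double-stranded RNA, gave 5 members (Oas1a, Oas2, Oas3, Oasl1 and Oasl2), and the cytosolic RNA sensors gave 3 (Ddx58, Ifih1 and Dhx58). Interferon-inducible GTPases, which attack the vacuoles of intracellular microbes and are strongly induced by interferon-γ, gave 9 (Gbp2, Gbp3, Gbp4, Gbp6, Gbp7, Irgm1, Irgm2, Igtp and Iigp1). Antigen processing gave 3, the immunoproteasome subunits Psmb8 and Psmb9 and the peptide transporter Tap1. The last 3, Parp9, Parp14 and Dtx3l, act in ADP-ribosylation and ubiquitin transfer.

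The sequences below show the elements through which several of the members described in the results are known to be read. RefSeq promoter windows (build GRCm38.p6, 300 bases around the start site) were matched by symbol for 30 of the 41 members. The ISRE core, searched as GAAANNGAAA on both strands, stood in the windows of 17 of these 30 (56.7%), against 3.99% of all 27025 symbols with a window. The GAS, searched as TTCNNNGAA on both strands, stood in those of 9 of the 30 (30%), against 9.55% of all symbols. A match describes letters in the window and not a site in use. Capitals mark the matched letters, which for Isg15 are 3 overlapping ISRE cores. The sequences are written in the direction of the gene, so that a core on the opposite strand reads as its reverse complement.
Isg15, chr4:156200850-156200921, minus strand: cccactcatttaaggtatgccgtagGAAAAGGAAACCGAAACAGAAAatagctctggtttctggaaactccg
Ifit1, chr19:34640760-34640838, plus strand: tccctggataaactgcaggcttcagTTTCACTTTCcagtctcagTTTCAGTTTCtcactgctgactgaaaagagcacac
Ifit3, chr19:34583348-34583441, plus strand: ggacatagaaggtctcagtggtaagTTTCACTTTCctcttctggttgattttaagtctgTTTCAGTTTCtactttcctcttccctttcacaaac
Stat2, chr10:128270251-128270310, plus strand: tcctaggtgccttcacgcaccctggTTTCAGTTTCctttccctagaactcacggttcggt
Irf1, chr11:53769899-53769957, plus strand, with a GAS in capitals: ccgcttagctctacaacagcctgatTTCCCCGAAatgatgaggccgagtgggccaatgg
The stretch of Ifit3b (chr19:34607744-34607837) was identical to that of Ifit3 over all 94 bases. These genes are near copies, so that reads counted on either may come from the other and their values are uncertain in that respect.

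Levels are given in TPM, the authors' length-normalized unit of transcript abundance, as the lowest, the median and the highest of the 6 mice of a group. Log2 fold changes come from 1 fit per tissue with limma/voom over the 7 groups and are given with their standard error (SE). A member passed at a false discovery rate (FDR) of at most 0.05, adjusted by Benjamini-Hochberg across all genes tested, and "rose" or "fell" is written only of those. The depth was 21676902 to 53869104 reads per liver library and 37573004 to 53996914 reads per eWAT library. The fewest reads on any member were 28 in liver (Oas3) and 38 in eWAT (Mx2), so that no member was near the limit of 3 reads below which a gene was taken as not detected. Alb, the hepatocyte marker, lay at 43236 to 75635 TPM in every liver library, and Adipoq, the adipocyte marker, lay at 740 to 3169 TPM in every eWAT library and did not exceed 0.55 TPM in liver. The 5 hepatocyte transcripts summed to between 6.07 and 5623 TPM in eWAT and moved with the groups, with medians of 1503 TPM in vehicle mice, 102 TPM with BI 456906 30 nmol/kg and 79.9 and 81.7 TPM with semaglutide 20 and 100 nmol/kg. Of these 5, Ttr and Serpina1a fell in eWAT with BI 456906 30 nmol/kg and none passed with semaglutide 100 nmol/kg, and their part in the results was not tested. Among 10 interferon genes searched, only Ifng was found with more than 3 reads in any library. In a bulk tissue, fewer cells of a type cannot be told apart from less RNA per cell.

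In vehicle mice the members were expressed at a median level of 9.09 TPM in liver and 17.1 TPM in eWAT, from Oas3 (median 0.72 TPM in liver and 1.26 TPM in eWAT) to Ifi27 (184 TPM in liver and 679 TPM in eWAT). In 19 members all 6 eWAT values lay above all 6 liver values. The share of all genes with this pattern was not counted, so nothing about the list is read from the count. Gbp2, for example, had a median of 50.0 TPM in eWAT against 8.77 TPM in liver, and Oas2, a synthetase, was 4.19-fold higher in eWAT. Mx2 was the only member with all liver values above all eWAT values, at medians of 2.95 and 1.54 TPM. The annotation lists Mx2 (chr16:97535308-97560900) as a polymorphic pseudogene, since many inbred strains carry a damaged copy.

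The level of the whole set in a mouse was taken as the mean over the 41 members of the log2 value, minus the mean of the vehicle group. In liver this level was between -0.49 and 0.31 in the vehicle mice, with a median of 0.06. With BI 456906 30 nmol/kg the 6 mice lay between -0.67 and -0.18 (median -0.58), and with semaglutide 100 nmol/kg between -0.78 and -0.16 (median -0.35). Both groups lay low as a whole, and their values overlapped the lower part of the vehicle range, where mouse 48 was the lowest. The intermediate dose of 20 nmol/kg BI 456906 had a median of 0.16, above that of vehicle, and the doses of 3 and 10 nmol/kg had medians of 0.07 and -0.12. Semaglutide 20 nmol/kg lay between -0.46 and -0.14 (median -0.33).

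**Figure D1:**
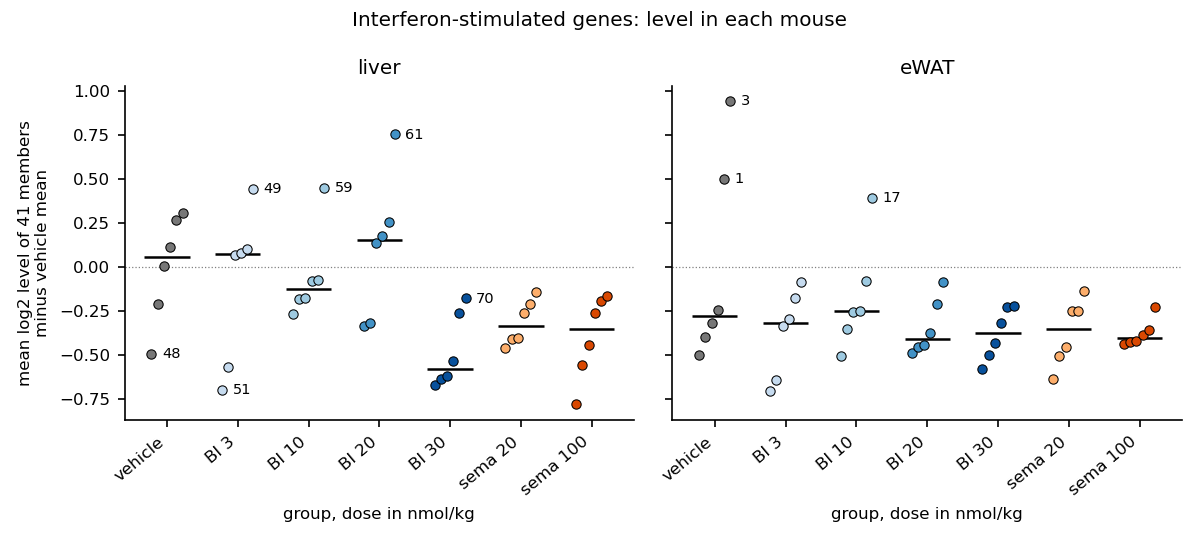
Level of the 41 interferon-stimulated genes in each mouse (mean log2 value over the members minus the vehicle mean, y axis) by group (x axis), in liver and eWAT; dots are single mice, bars are group medians and numbers mark mice named in the text. In liver the 30 nmol/kg BI 456906 mice lie between -0.67 and -0.18, while in eWAT vehicle mice 1 and 3 (0.50 and 0.94) stand above the other 4 vehicle mice.

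In eWAT 3 animals stood apart. Vehicle mice 1 and 3 had levels of 0.50 and 0.94, and the other 4 vehicle mice lay between -0.50 and -0.24. Mouse 17 of the 10 nmol/kg BI 456906 group reached 0.39, while the next highest treated mouse was at -0.08. The medians of the 6 treated groups, -0.25 to -0.41, differed little from the -0.28 of the vehicle group, whose mean was raised by mice 1 and 3.

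In liver 22 of the 41 members fell and 2 rose with BI 456906 30 nmol/kg, while limma on log2(TPM + 1) gave 14 falls and 1 rise. In limma/voom 29.9% of all 15964 genes tested were lower and 28.9% higher with this dose, a nearly even split. The members passing in that fit lay mostly on the lower side. The median log2 fold change of the 41 members was -0.41, against -0.03 for all genes, and 34 of the 41 had a negative value. All 3 members of antigen processing fell (median -0.93), as did 5 of the 9 GTPases, 9 of the 14 antiviral effectors, 2 of the 5 synthetases, 2 of the 4 transcription factors and 1 of the 3 RNA sensors. None of the 3 ADP-ribosylation and ubiquitin members passed. Only Mx2 and Stat2 rose. A fall of at least 1 on the log2 scale was reached by 6 members.

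**Figure D2:**
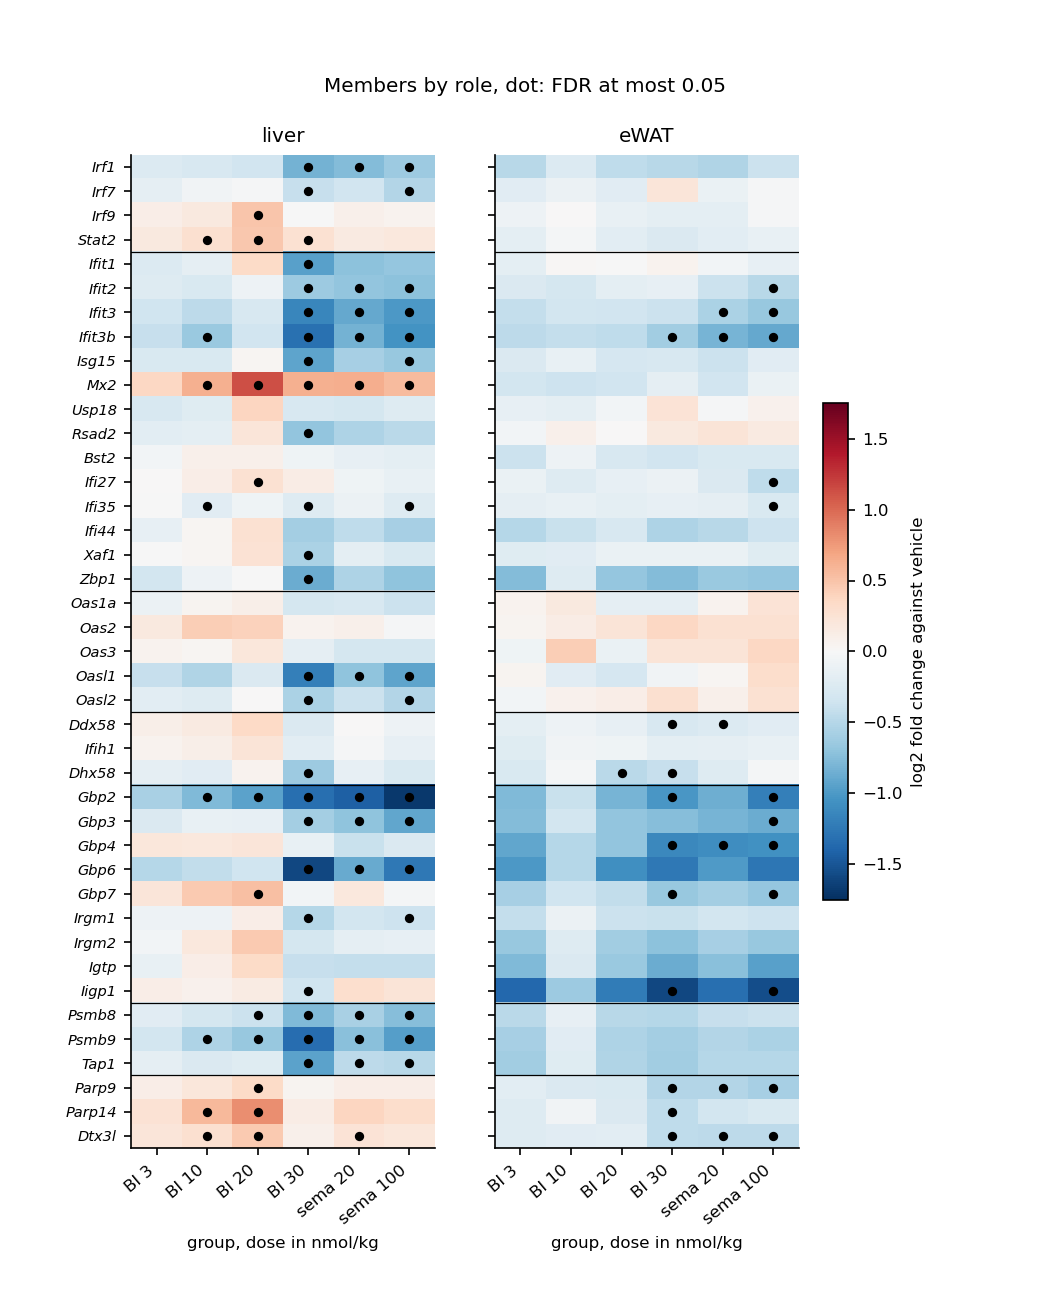
Log2 fold change of each of the 41 members (rows, ordered by role) for the 6 treated groups against vehicle (columns) in liver and eWAT, as colour; a dot marks an FDR of at most 0.05 (limma/voom). In liver the 30 nmol/kg BI 456906 column holds 22 falls and 2 rises, and the 10 falls of the same column in eWAT are mostly GTPases and ADP-ribosylation genes.

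Gbp6 (chr5:105270702-105293698), a guanylate-binding GTPase, had the largest fall in liver. It lay at 3.70, 9.09 and 14.7 TPM (lowest, median and highest) in vehicle mice and at 2.74, 3.06 and 4.90 TPM with BI 456906 30 nmol/kg, a log2 fold change of -1.59 ± 0.40 (FDR = 0.000795). Vehicle mouse 48 was the low vehicle value, and all other vehicle mice lay above the treated group. Psmb9 (chr17:34181987-34187764), the inducible proteasome subunit, went from 13.96, 17.2 and 23.8 TPM to 5.19, 7.32 and 9.13 TPM, with no overlap and a log2 fold change of -1.34 ± 0.23 (FDR = 3.71e-06). Gbp2 (chr3:142620602-142638008) lay at 3.32, 8.77 and 17.2 TPM in vehicle mice and at 2.62, 3.05 and 5.23 TPM with treatment (-1.32 ± 0.33, FDR = 0.000808), with some overlap at the low end. All 6 treated mice lay below all 6 vehicle mice in 4 members, Irf1, Oasl1, Psmb8 and Psmb9, a pattern seen in 10.8% of all genes tested.

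Effectors of the antiviral response fell alongside. Ifit3b (chr19:34607970-34613401) lay at 2.34, 5.17 and 5.93 TPM in vehicle mice and at 1.47, 1.68 and 2.45 TPM with BI 456906 30 nmol/kg (-1.31 ± 0.27, FDR = 8.39e-05). Its near copy Ifit3 (chr19:34583531-34588731) went from 11.2, 19.4 and 23.98 TPM to 6.33, 7.93 and 11.9 TPM (-1.14 ± 0.27, FDR = 0.00042). Ifit1 (chr19:34640871-34650009) fell from 2.56, 5.88 and 6.90 TPM to 2.11, 2.32 and 4.64 TPM (-0.96 ± 0.35, FDR = 0.0167), where mouse 70 gave the highest treated value, far from the other 5. In each of these 3 genes the treated median lay below the lowest vehicle mouse. Oasl1 (chr5:114923240-114937915), a synthetase-like protein, went from 7.54, 9.72 and 12.3 TPM to 3.47, 5.11 and 6.74 TPM (-1.19 ± 0.26, FDR = 0.000137). Isg15 (chr4:156199424-156200818) went from 7.85, 12.6 and 18.7 TPM to 4.40, 6.63 and 10.4 TPM (-0.93 ± 0.28, FDR = 0.00417).

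The transcription factors did not move as 1 group. Irf1 (chr11:53770014-53778374), the interferon-γ-induced factor, fell from 20.0, 26.4 and 33.1 TPM to 11.96, 15.4 and 19.4 TPM with BI 456906 30 nmol/kg (-0.83 ± 0.18, FDR = 0.000106). Irf7 (chr7:141262706-141266481), which amplifies type I interferon, fell from 23.6, 32.2 and 41.7 TPM to 20.6, 26.03 and 32.7 TPM (-0.40 ± 0.16, FDR = 0.0264), and its groups overlapped over most of their range. Both partners of the ISRE-binding complex listed here behaved otherwise. Stat2 (chr10:128270559-128292849) rose from 14.7, 20.8 and 22.9 TPM to 20.3, 24.8 and 26.1 TPM (0.26 ± 0.08, FDR = 0.00721). Irf9 (chr14:55603571-55610030) did not pass, with -0.01 ± 0.12 (FDR = 0.932).

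**Figure D3:**
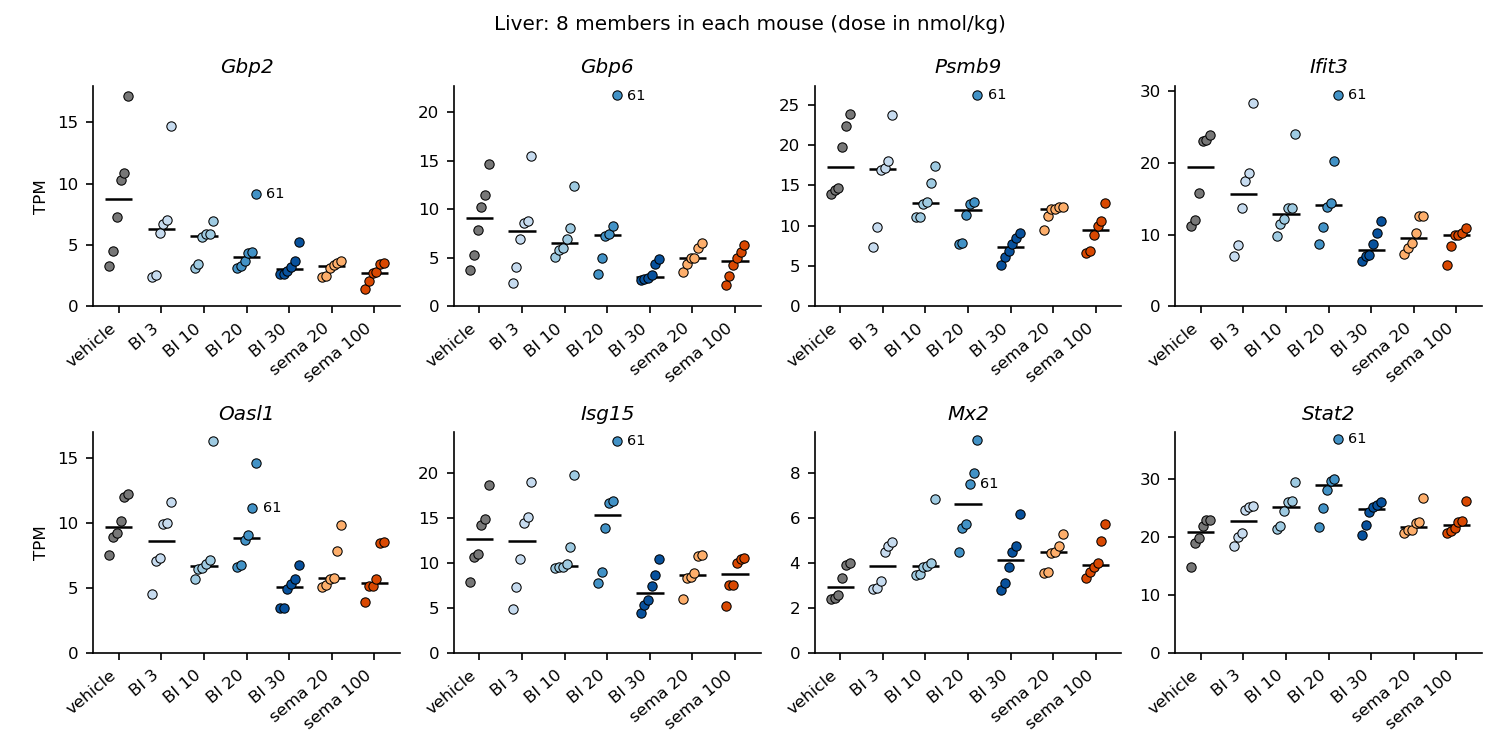
TPM in each liver mouse (y axis, from 0) of Gbp2, Gbp6, Psmb9, Ifit3, Oasl1, Isg15, Mx2 and Stat2 by group (x axis); dots are single mice, bars are group medians and mouse 61 of the 20 nmol/kg BI 456906 group is numbered. Psmb9 at 30 nmol/kg (5.19 to 9.13 TPM) lies below all vehicle mice (13.96 to 23.8 TPM), and Mx2 and Stat2 are highest at 20 nmol/kg.

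Lower doses of BI 456906 gave fewer passing members in liver. At none of them were rises or falls in limma/voom more frequent than among all genes, so nothing about the list is read from these counts. With 3 nmol/kg none of the members passed in limma/voom, edgeR or DESeq2, and 2 had an unadjusted p under 0.05, while 8.46% of all genes were higher and 4.93% lower. Leaving out mouse 44 or mouse 49 gave 1 passing member. With 10 nmol/kg 4 members rose (Mx2, Parp14, Stat2 and Dtx3l) and 4 fell (Gbp2, Ifit3b, Psmb9 and Ifi35), beside 19.4% of all genes higher and 18.1% lower. The count of 8 was 5 without mouse 43, 45 or 57 and 4 without mouse 58, and it was 5 by limma on log2(TPM + 1), all of them rises, and 16 with sample quality weights. With 20 nmol/kg 8 rose and 3 fell, beside 23% higher and 22.9% lower. The 8 were Irf9, Parp9, Mx2, Parp14, Stat2, Gbp7, Dtx3l and Ifi27, which include all 3 members of the ADP-ribosylation and ubiquitin role, and the 3 were Gbp2, Psmb9 and Psmb8. Mx2 lay at 2.38, 2.95 and 3.99 TPM in vehicle mice and at 4.51, 6.62 and 9.45 TPM with 20 nmol/kg, with no overlap (1.13 ± 0.20, FDR = 1.43e-05). At 30 nmol/kg it was back at 2.80, 4.15 and 6.20 TPM (0.62 ± 0.21, FDR = 0.0103). Parp14, a mono-ADP-ribosyltransferase, had log2 fold changes of 0.57 at 10 nmol/kg (FDR = 0.0071), 0.82 at 20 nmol/kg (FDR = 0.000124) and 0.12 at 30 nmol/kg (FDR = 0.543). Irf9 rose with 20 nmol/kg (0.48 ± 0.12, FDR = 0.000961), from 16.7, 22.4 and 24.3 TPM to 25.2, 33.9 and 42.1 TPM, again with no overlap.

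A straight line over vehicle and the 4 doses was tested as well, and a slope that passed need not mean a step at each dose. By this test 15 members fell and 2 (Mx2 and Stat2) rose, where 29.6% of all genes fell and 29.3% rose. Psmb9 fell by 0.38 ± 0.07 on the log2 scale per 10 nmol/kg (FDR = 4.07e-06), with log2 fold changes of -0.54 at 10, -0.66 at 20 and -1.34 at 30 nmol/kg. Stat2 rose by 0.09 ± 0.02 per 10 nmol/kg (FDR = 0.00126), although its value at 20 nmol/kg (0.47 ± 0.08) was above that at 30 nmol/kg.

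Semaglutide was given at other doses, except for 20 nmol/kg, and is described first on its own. With 20 nmol/kg 11 members fell and 2 rose (Mx2 and Dtx3l) in liver, beside 23.5% of all genes lower and 23% higher. The falls were close to the share of all genes, so nothing about the list is read from their count. With sample quality weights 25 fell and 2 rose. The share of all genes in that fit is not given here, so this count is not set against the shares above. With 100 nmol/kg 16 fell and 1, Mx2, rose, beside 24.1% lower and 24% higher, with a median over the members of -0.36 against -0.02 for all genes. All 3 members of antigen processing fell, as did 4 GTPases, 5 antiviral effectors, 2 synthetases and 2 transcription factors. The 6 members with the largest falls were Gbp2, Gbp6, Ifit3b, Ifit3, Psmb9 and Oasl1, which are also the 6 largest with BI 456906 30 nmol/kg, a comparison made against the same vehicle mice. All 6 treated mice lay below all 6 vehicle mice in 3 members, Ifit3, Psmb8 and Psmb9, against 5.51% of all genes.

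Gbp2 had the largest fall with semaglutide 100 nmol/kg, from 3.32, 8.77 and 17.2 TPM to 1.45, 2.76 and 3.55 TPM (-1.69 ± 0.35, FDR = 0.000153), and 5 of the 6 vehicle mice lay above the treated group. Gbp6 reached 2.19, 4.65 and 6.28 TPM (-1.25 ± 0.38, FDR = 0.00612) and Ifit3b 1.16, 2.29 and 2.95 TPM (-1.05 ± 0.26, FDR = 0.00115). Ifit3 lay at 5.71, 9.98 and 10.9 TPM (-1.0 ± 0.26, FDR = 0.00199). Psmb9 lay at 6.67, 9.43 and 12.8 TPM (-0.97 ± 0.21, FDR = 0.000285), and Oasl1 at 3.90, 5.41 and 8.53 TPM (-0.93 ± 0.25, FDR = 0.00211). Isg15, Irf1 and Irf7 fell as well, by 0.66 ± 0.27 (FDR = 0.0381), 0.63 ± 0.17 (FDR = 0.00277) and 0.51 ± 0.16 (FDR = 0.00702) on the log2 scale. Ifit1 (-0.67 ± 0.33, FDR = 0.09), Stat2 (0.18, FDR = 0.0713) and Irf9 (0.06, FDR = 0.724) did not pass. Iigp1, the most abundant GTPase of the list in liver at a vehicle median of 115 TPM, fell with BI 456906 30 nmol/kg (-0.35 ± 0.13, FDR = 0.0175), while its values were 0.30 ± 0.13 (FDR = 0.0562) and 0.22 (FDR = 0.149) with semaglutide 20 and 100 nmol/kg.

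The dose of 20 nmol/kg was the one given of both compounds. They differ in more than the action on the GCGR, since equal doses need not give equal exposure or equal activity at the GLP-1R. In liver the difference of BI 456906 minus semaglutide was positive for 40 of the 41 members, with a median of 0.42 against 0.00 for all genes. Only Stat2 passed, higher with BI 456906 (21.8, 28.9 and 36.9 TPM against 20.7, 21.8 and 26.7 TPM), at 0.31 ± 0.08 with a 95% interval of 0.14 to 0.48 (FDR = 0.0373). Of all genes, 0.908% were higher and 1.51% lower at the FDR limit. In limma/voom 24 members had an unadjusted p under 0.05. The share of all genes with such a p is not given here, so this count is not read as particular to the members. The largest difference was that of Ifit1, at 1.04 with an interval of 0.39 to 1.70 (FDR = 0.0736). Other differences were 0.62 for Isg15 (0.09 to 1.15, FDR = 0.242), 0.50 for Mx2 (0.13 to 0.86, FDR = 0.149), 0.42 for Irf1 (0.06 to 0.77, FDR = 0.238) and 0.39 for Irf9 (0.15 to 0.63, FDR = 0.0676). Psmb9 differed by 0.07, with an interval of -0.37 to 0.52 (FDR = 0.93). The number of passing members depended on the procedure, from 0 to 12. It was also 0 when mouse 61, 62 or 63 of the BI 456906 group or mouse 73, 75, 76, 77 or 78 of the semaglutide group was left out, and 6 without mouse 65 and 5 without mouse 66. With mice 49, 59 and 61 left out the median difference was 0.30. Mouse 61 had the highest level of the set in its group, so leaving it out by itself lowers this difference.

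In liver the highest mouse stood further above the next in the level of the set at the lower BI 456906 doses than at 30 nmol/kg. Mouse 61 had the highest value of its group (BI 456906 20 nmol/kg) in 34 of the 41 members and a level of 0.75, where the next mouse had 0.26. Mouse 59 (10 nmol/kg) was highest in 33 and mouse 49 (3 nmol/kg) in 31. Without mouse 59 alone the count of passing members at 10 nmol/kg stayed at 8. Without mouse 61 alone the count at 20 nmol/kg was 10 in place of 11. With mice 49, 59 and 61 left out, 20 nmol/kg gave 6 rises and 5 falls with a median of 0.01, in place of 0.15 with all mice. These mice were the highest of their groups in the level of the set, so leaving them out by itself lowers the changes of the members. The share of all genes in that fit is not given here, so nothing about the list is read from its counts. Irf9, Parp9, Mx2, Parp14, Stat2 and Dtx3l kept their rise, with Stat2 at 0.42 (FDR = 9.69e-05) and Mx2 at 1.10 (FDR = 2.35e-05). Mouse 61 also had the highest sum of the dendritic cell markers (9.38 TPM) and of the macrophage markers (199 TPM) of its group, and mouse 49 had 9.03 and 242 TPM. In the group of mouse 59 the highest sums were in other animals, mouse 60 for the dendritic cell markers (5.93 TPM) and mouse 56 for the macrophage markers (252 TPM), and the part of these cells in the result was not tested. For BI 456906 30 nmol/kg the count of passing members was 19 to 25 when each of the 12 mice was left out in turn, and 18 of the 24 passed every time, among them Gbp2, Gbp6, Psmb8, Psmb9, Tap1, Ifit1, Ifit3, Isg15, Irf1 and Oasl1. For semaglutide 100 nmol/kg the count was 13 to 19, and 12 of the 17 passed every time. Neither count fell by over 1.5 times when any 1 mouse was left out.

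**Figure D4:**
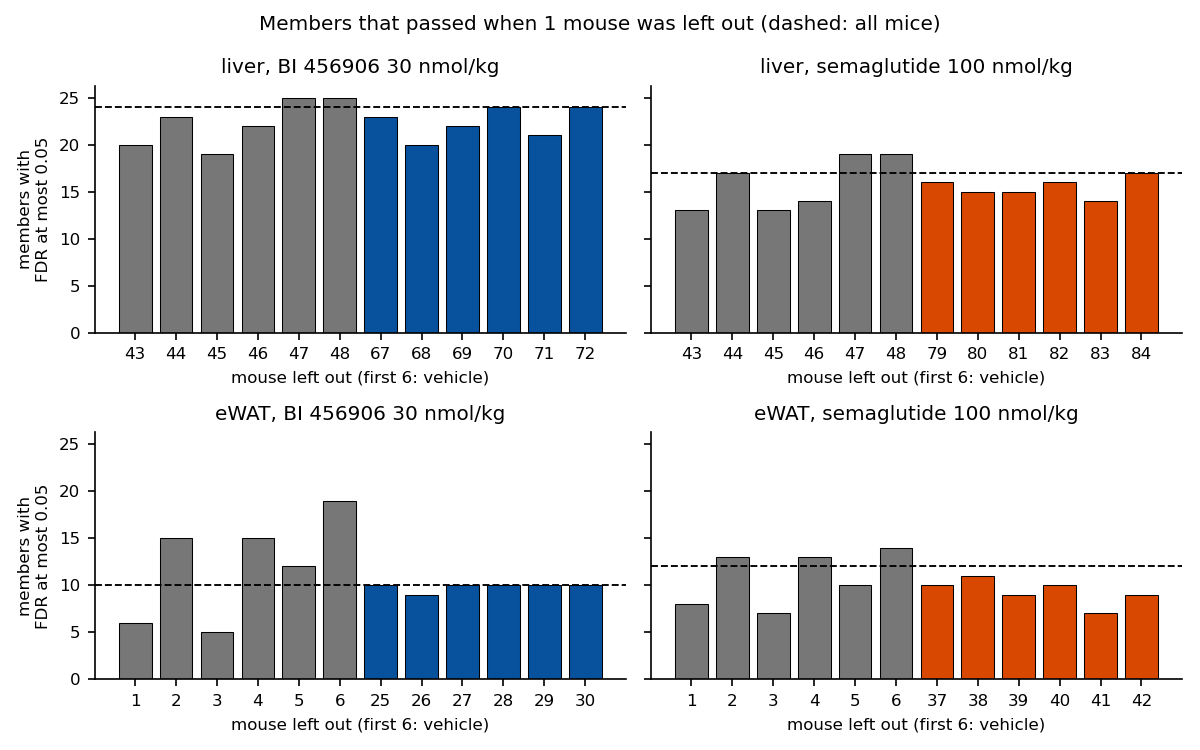
Number of the 41 members with an FDR of at most 0.05 (y axis, from 0) when each of 12 mice (x axis, numbered) is left out, for BI 456906 30 nmol/kg and semaglutide 100 nmol/kg in liver and eWAT; the dashed line is the count with all mice. In liver the counts stay within 19 to 25 and 13 to 19, and in eWAT they fall to 5 and 7 without vehicle mouse 3.

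Markers of cell types were read beside these liver results. Of 5 dendritic cell markers, 4 (Itgax, Cd209a, Flt3 and Xcr1) fell and 1 (Clec9a) rose with BI 456906 30 nmol/kg, and 4 fell with semaglutide 100 nmol/kg. Their summed level was 3.31 to 10.2 TPM in vehicle mice, 3.72 to 6.58 TPM with BI 456906 30 nmol/kg and 3.25 to 5.51 TPM with semaglutide 100 nmol/kg, and none of the 5 was at 0. None of the 5 Kupffer cell and 6 T cell markers passed with BI 456906 30 nmol/kg, and of 7 macrophage markers 2 rose and 2 fell. Of 5 neutrophil markers 2 were tested, of which S100a9 fell with BI 456906 30 nmol/kg, and S100a8 and S100a9 fell with semaglutide 100 nmol/kg. Of 5 hepatocyte markers, Cps1, Alb, Apoa1 and Serpina1a rose and Ttr fell with both treatments. The part of these cells in the changes of the members was not tested.

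In eWAT 10 members fell and none rose with BI 456906 30 nmol/kg, beside 13% of all genes lower and 10.9% higher. The median over the members was -0.37, against -0.03 for all genes. The 10 were Iigp1, Gbp4, Gbp2 and Gbp7 among the GTPases, all 3 of Parp9, Parp14 and Dtx3l, the sensors Dhx58 and Ddx58, and Ifit3b. With semaglutide 100 nmol/kg 12 fell and none rose, beside 9.42% lower and 5.48% higher. These were 5 GTPases (Iigp1, Gbp2, Gbp4, Gbp3 and Gbp7), 5 effectors (Ifit3b, Ifit3, Ifit2, Ifi27 and Ifi35), Parp9 and Dtx3l. Semaglutide 20 nmol/kg gave 6 falls and no rise (4.54% of all genes lower and 1.8% higher), and 3 falls when vehicle mouse 1 or 3 or treated mouse 32, 33, 35 or 36 was left out. With BI 456906 20 nmol/kg only Dhx58 fell (2.91% lower and 1.36% higher), at -0.47 ± 0.13 (FDR = 0.034), and it did not pass without vehicle mouse 1 or 3 or treated mouse 20, 22, 23 or 24. None of the members passed in limma/voom with 10 nmol/kg (0.464% lower and 0.0486% higher, 3 members with an unadjusted p under 0.05) or with 3 nmol/kg (0% lower and 0.00539% higher, 21 members with an unadjusted p under 0.05). The share of all genes with an unadjusted p under 0.05 is not given here for any comparison, so nothing is read from such counts. Vehicle mice 1 and 3, whose levels of the set were high, are part of every comparison with vehicle. The edgeR test called none at either dose, and DESeq2 called 4 at 3 nmol/kg. Over the dose range 7 fell and none rose as a straight line (15.8% lower and 13.8% higher), and 4 without mouse 26 of the 30 nmol/kg group. The counts depended on the test. With edgeR on the recovered reads 10 and 22 members fell with BI 456906 20 and 30 nmol/kg, and 15 and 19 with semaglutide 20 and 100 nmol/kg. With DESeq2 these counts were 13 and 22, and 18 and 22, and for the straight line 17 fell and 1 rose in edgeR and 18 fell and 1 rose in DESeq2. The shares of all genes above are those of limma/voom. Shares for edgeR and DESeq2 are not given here, so nothing about the list is read from their counts. Between BI 456906 and semaglutide at 20 nmol/kg none of the members differed in eWAT by any of these 3 tests (0% of all genes in either direction, 2 members with an unadjusted p under 0.05). The differences ran from -0.34 for Oas3 (95% interval -0.95 to 0.27) to 0.39 for Gbp4 (-0.31 to 1.09), and the interval was -0.94 to 1.15 for Iigp1, the widest.

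Single values are given for the GTPases that fell. Iigp1, which loads onto parasite vacuoles, had 69.01, 20.1, 183, 13.6, 15.02 and 8.96 TPM in vehicle mice 1 to 6. With BI 456906 30 nmol/kg it had 4.70, 9.38 and 15.5 TPM (lowest, median and highest), a log2 fold change of -1.59 ± 0.51 (FDR = 0.0216), and with semaglutide 100 nmol/kg 8.43, 9.37 and 11.0 TPM (-1.55 ± 0.51, FDR = 0.0351). Mice 1 and 3 stood far above the remaining vehicle mice, whose values reached into the treated range. Gbp2 had 169 and 303 TPM in these mice, against a vehicle median of 50.0 TPM and a lowest value of 39.4 TPM. With BI 456906 30 nmol/kg Gbp2 lay at 26.4, 42.3 and 45.4 TPM (-1.01 ± 0.33, FDR = 0.023), and with semaglutide 100 nmol/kg at 27.2, 34.7 and 37.8 TPM (-1.19 ± 0.33, FDR = 0.0124), the latter below all vehicle mice. Gbp4 (chr5:105115767-105139586) went from 7.87, 10.4 and 44.8 TPM to 3.56, 7.60 and 11.5 TPM (-1.13 ± 0.33, FDR = 0.0138), and with semaglutide 100 nmol/kg its log2 fold change was -1.06 ± 0.33 (FDR = 0.0273). Gbp7 (chr3:142530342-142550149) went from 13.2, 15.7 and 47.3 TPM to 7.12, 13.1 and 15.9 TPM (-0.67 ± 0.22, FDR = 0.0245), with -0.68 ± 0.22 (FDR = 0.0316) for semaglutide 100 nmol/kg. Gbp3 (chr3:142560026-142573209) fell with semaglutide 100 nmol/kg from 12.9, 17.1 and 79.1 TPM to 11.3, 12.1 and 15.1 TPM (-0.87 ± 0.30, FDR = 0.0441). In each of these GTPases the highest vehicle value was several times the vehicle median.

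Across the set, mice 1 and 3 were both above the other 4 vehicle mice in 35 of 41 members. The share of all genes with this order was not counted, so the count is not read as particular to the members. The ratio to the median of the other 4 vehicle mice was 6.04 in mouse 3 and 3.16 in mouse 1 at the median of the GTPases. It was 4.21 and 2.98 for antigen processing and 1.61 and 1.28 for the antiviral effectors. The largest were those of Iigp1 (12.8 and 4.83) and Gbp6 (9.91 and 5.21). The median over the members of the ratio of the 30 nmol/kg BI 456906 group to these 4 mice was 1.00, and that of semaglutide 100 nmol/kg was 0.968. Mice 1 and 3 were set aside here for their high levels of the members, which by itself raises these ratios.

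The same mice stood apart in genes outside the list. Ifng, the gene of interferon-γ itself, was at 2.21 TPM in vehicle mouse 1, 5.43 TPM in vehicle mouse 3 and 1.86 TPM in mouse 17 of the 10 nmol/kg BI 456906 group, and did not exceed 0.82 TPM in the other 39 eWAT libraries. Cxcl9, a chemokine induced by interferon-γ, was at 86.3, 155 and 81.4 TPM in the 3 mice, against 4.37 to 28.8 TPM. The 6 T cell markers summed to 95.2, 134 and 87.2 TPM in these mice, against group medians of 11.4 to 23.3 TPM. The NK cell markers summed to 14.1, 24.6 and 15.5 TPM (group medians 4.49 to 8.28 TPM). The B cell markers summed to 64.6, 50.2 and 23.3 TPM (5.3 to 15.7 TPM), with 27.8 TPM in mouse 14 and 26.5 TPM in mouse 10. Those of plasmacytoid dendritic cells summed to 5.4, 8.16 and 8.15 TPM (2.3 to 3.5 TPM), with 7.48 TPM in mouse 40. Not every list stood apart in these mice. The dendritic cell markers summed to 213, 171 and 324 TPM (192 to 298 TPM) and the neutrophil markers to 10.7, 14.3 and 14.8 TPM (5.8 to 16.8 TPM). The summed T cell markers ranged from 8.41 to 134 TPM in vehicle mice, from 8.37 to 20.5 TPM with BI 456906 30 nmol/kg and from 8.02 to 32.9 TPM with semaglutide 100 nmol/kg, and 1 of the 6, Trac, fell with BI 456906 30 nmol/kg. The part of T, NK, B and plasmacytoid dendritic cells and of interferon-γ in the levels of the members was not tested.

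**Figure D5:**
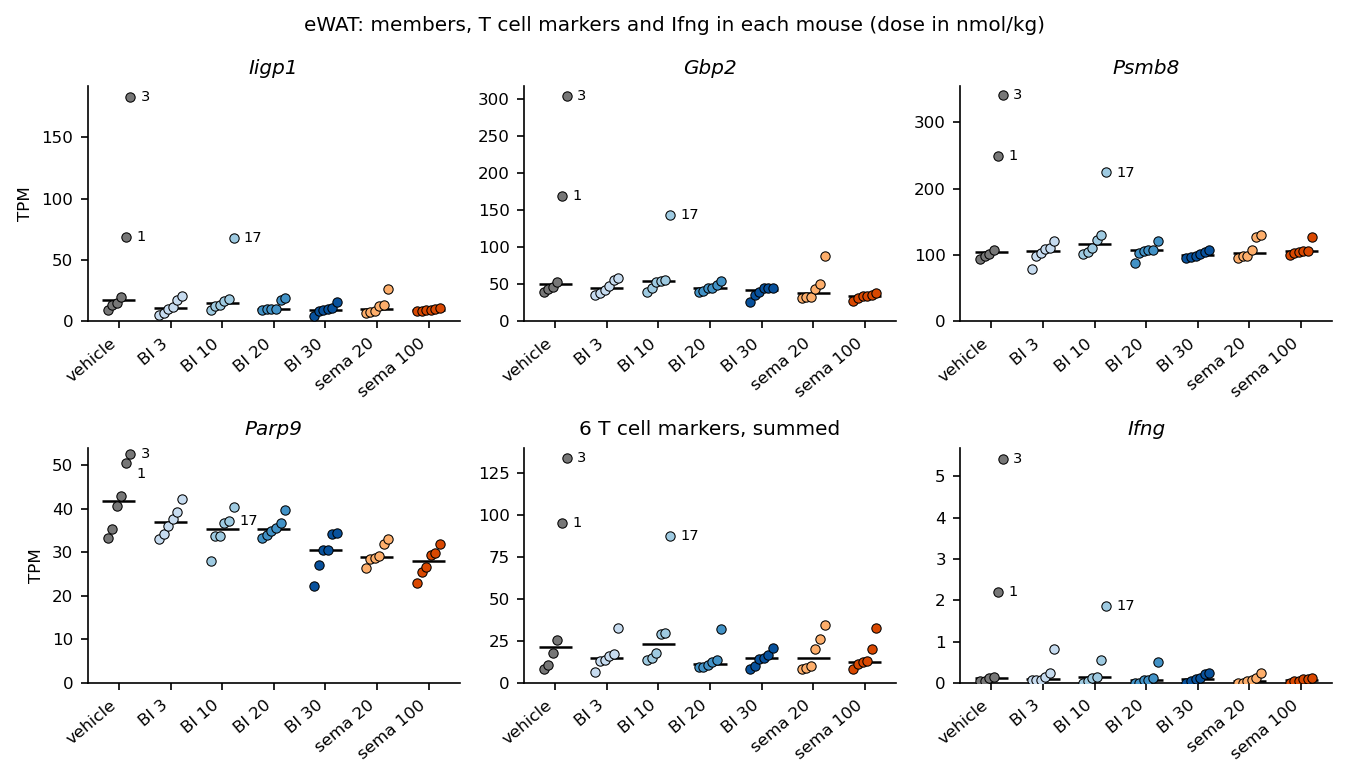
TPM in each eWAT mouse (y axis, from 0) of Iigp1, Gbp2, Psmb8, Parp9, the summed 6 T cell markers and Ifng by group (x axis); dots are single mice, bars are group medians and mice 1, 3 and 17 are numbered. Mice 1 and 3 lead the vehicle group in the GTPases, the T cell markers and Ifng (2.21 and 5.43 TPM), while Parp9 is lower in all mice of the semaglutide 100 nmol/kg group than in any vehicle mouse.

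Without vehicle mice 1 and 3, an alternative chosen after the data were seen, few of the eWAT falls passed. Those mice were left out for their high levels of the members, which by itself moves the changes of those members upward. With all mice none of the synthetases rose with BI 456906 30 nmol/kg or semaglutide 100 nmol/kg, so the rises given here are not read as results. Without mice 1 and 3, 2 members fell at 30 nmol/kg BI 456906 (Parp9 and Ifit3b) and 1 rose (Oasl2), and the median over the members was -0.01. Iigp1 then had -0.59 (FDR = 0.346), Gbp2 -0.24 (FDR = 0.547) and Gbp4 -0.54 (FDR = 0.213). With semaglutide 100 nmol/kg 3 fell (Parp9, Ifit3b and Ifi27) and 3 of the synthetase family rose, Oasl2 by 0.49 ± 0.16 (FDR = 0.0324), Oas3 by 0.89 ± 0.30 (FDR = 0.0359) and Oasl1 by 0.53 ± 0.17 (FDR = 0.0259), with a median of 0.05. With semaglutide 20 nmol/kg 2 fell, Parp9 and Ifit3b. In this fit 11.1% of all genes were lower and 6.94% higher with BI 456906 30 nmol/kg, 11.99% lower and 5.22% higher with semaglutide 100 nmol/kg, and 6.93% lower and 1.41% higher with semaglutide 20 nmol/kg. Leaving out 1 mouse at a time gave 5 to 19 members for BI 456906 30 nmol/kg (5 without mouse 3, 6 without mouse 1, 19 without vehicle mouse 6) and 7 to 14 for semaglutide 100 nmol/kg (7 without mouse 3 or mouse 41).

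Parp9 and Ifit3b fell with BI 456906 30 nmol/kg and both semaglutide doses, with and without those mice. Parp9 (chr16:35938470-35972605), which works with Dtx3l and shares 682 bases with it on the opposite strand, lay at 33.2, 41.8 and 52.6 TPM in vehicle mice. It lay at 22.3, 30.6 and 34.5 TPM with BI 456906 30 nmol/kg (-0.51 ± 0.09, FDR = 0.000117) and at 23.1, 27.99 and 31.9 TPM with semaglutide 100 nmol/kg (-0.58 ± 0.09, FDR = 4.34e-05). Without mice 1 and 3 the log2 fold changes were -0.39 (FDR = 0.00286) and -0.46 (FDR = 0.000729). Ifit3b lay at 6.07, 6.39 and 9.33 TPM in vehicle mice, at 3.43, 5.07 and 6.18 TPM with BI 456906 30 nmol/kg (-0.60 ± 0.17, FDR = 0.00917) and at 2.61, 3.71 and 5.49 TPM with semaglutide 100 nmol/kg (-0.90 ± 0.18, FDR = 0.000606). Without mice 1 and 3 it had -0.53 (FDR = 0.0431) and -0.83 (FDR = 0.00257). All 6 mice given semaglutide 100 nmol/kg lay below all vehicle mice in 3 members, Ifit3b, Gbp2 and Parp9 (2.21% of all genes). With BI 456906 30 nmol/kg this held for 0 members (2.9% of all genes).

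Isg15, Ifit1 and the 4 transcription factors did not pass in eWAT at the highest doses. With BI 456906 30 nmol/kg Isg15 had -0.29 (FDR = 0.343), Irf1 -0.48 ± 0.19 (FDR = 0.0655), Irf7 0.21 ± 0.18 (FDR = 0.423), Irf9 -0.18 (FDR = 0.301), Stat2 -0.26 ± 0.12 (FDR = 0.1) and Ifit1 0.06 ± 0.22 (FDR = 0.863). With semaglutide 100 nmol/kg the values were -0.20 for Isg15 (FDR = 0.557), -0.38 for Irf1 (FDR = 0.183), -0.03 for Irf7 (FDR = 0.942), -0.02 for Irf9 (FDR = 0.916), -0.13 for Stat2 (FDR = 0.475) and -0.15 for Ifit1 (FDR = 0.698). Irf1 lay at 43.9, 48.3 and 144 TPM in vehicle mice, so that its highest value was again set apart from the median.

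The change itself was compared between the tissues as an interaction in 1 fit of all 84 libraries. For BI 456906 30 nmol/kg 10 members differed, where 45.9% of all genes did. Oasl1 (liver minus eWAT -1.24, FDR = 0.00123), Ifit1 (-1.13), Rsad2 (-0.97), Oasl2 (-0.95), Ifit3 (-0.87), Ifit3b (-0.82) and Irf7 (-0.72) had the lower fold change in liver. Parp9 (0.45), Dtx3l (0.42) and Stat2 (0.41) had the lower fold change in eWAT. For semaglutide 100 nmol/kg 5 differed, where 33.9% of all genes did, namely Oasl1 (-1.28), Oasl2 (-0.84), Dtx3l (0.60), Parp9 (0.64, FDR = 5.86e-05) and Iigp1 (1.72, FDR = 0.0101). Without eWAT vehicle mice 1 and 3 the counts were 16 (41.5% of all genes) and 10 (32.9%). Psmb9 then differed with both treatments (-1.32, FDR = 0.000115, and -0.98, FDR = 0.00399), as did Gbp2 (-1.06 and -1.23), while Iigp1 with semaglutide (0.82, FDR = 0.12) did not pass. Mice 1 and 3 were left out for their high levels of the members, which by itself lowers liver minus eWAT for those members. With all mice neither Psmb9 (FDR = 0.0543 and 0.31) nor Gbp2 (FDR = 0.544 and 0.457) passed. A difference between tissues is therefore not read from their values without these mice.

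Other genes of the pathway were read from lists chosen with earlier results of these data known. Of 58 further interferon-induced genes 56 were tested, and in liver 25 fell and 6 rose with BI 456906 30 nmol/kg, and 27 fell and 5 rose with semaglutide 100 nmol/kg, where 29.9% and 24.1% of all genes were lower and 28.9% and 24% higher. In eWAT 14 fell and 2 rose, and 9 fell and 1 rose, where 13% and 9.42% of all genes were lower and 10.9% and 5.48% higher. Cxcl10, a chemokine for activated T cells, fell in liver by 2.28 ± 0.45 on the log2 scale with BI 456906 30 nmol/kg (FDR = 3.69e-05) and by 2.08 with semaglutide 100 nmol/kg (FDR = 0.000132). In eWAT Cxcl10 fell by 2.58 (FDR = 0.0155) and 2.38 (FDR = 0.0303), and there it was at 15.5, 39.4 and 21.6 TPM in mice 1, 3 and 17 against 0.50 to 4.02 TPM in the others. B2m, the light chain of class I antigen-presenting molecules, fell in liver by 0.45 (FDR = 6.67e-06) and 0.37 (FDR = 0.000228). Among 15 receptors and signal transducers, 4 fell and 4 rose in liver with BI 456906 30 nmol/kg, close to the 29.9% and 28.9% of all genes, so that nothing about the list is read from the count. The falls included Ifnar2, a chain of the type I receptor (-0.54, FDR = 1.66e-08), and the rises were Stat3, Ptpn2, Jak1 and Socs3, the last a feedback inhibitor. In eWAT 4 of these fell and 1 rose. Of 17 sensors and adaptors upstream of interferon 15 were tested, and in liver 5 rose and 2 fell with BI 456906 30 nmol/kg, again beside 28.9% of all genes higher and 29.9% lower.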

How the data were processed

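The deposited gene table holds a signal per gene that the authors made by dividing the reads counted on each gene by 1 factor per library. Every value was a whole multiple of 1 step (100% whole within 0.01), which gave back the reads. A further deposited table holds TPM, which the authors normalized for gene length and library. The submitters' processing notes name STAR 2.5.2b, RSEM 1.3.0, featureCounts 1.5.1, FastQC 0.11.5 and the build mm10 (GRCm38). The study's methods describe another library kit than the labels, so whether strand was used in counting is uncertain. This bears on Parp9 and Dtx3l and on Psmb9 and Tap1, which overlap on opposite strands, and Irgm2 and Igtp overlap on the same strand. GENCODE M21 gave a symbol to 48348 of the 48794 Ensembl genes, and gene coordinates are its own.

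Genes were kept by filterByExpr (15964 in liver, 18536 in eWAT, 15297 for the interaction) and tested two-sided with limma/voom on the deposited signal (limma 3.58.1 and edgeR 4.0.16 in R 4.3.3), with TMM factors, a pseudocount of 0.5, no covariate and 1 fit per tissue. The threshold was an FDR of at most 0.05, and changes of at least 1 on the log2 scale were counted beside it. The study's methods name limma/voom, this FDR and this log2 limit, and the filter, the factors and the use of the deposited signal were chosen here. The alternatives were RLE factors, library size alone, no filter, edgeR's quasi-likelihood test and DESeq2 1.42.0 on the recovered reads, limma on log2(TPM + 1) and log2(TPM + 0.1), sample quality weights and each mouse left out. Fits without groups of mice were added after the data were seen. The p-values rest on a spread between libraries that is pooled over the groups of a fit. Reads are subject to counting error, which the pooled spread includes. In eWAT the level of the set had a standard deviation of 0.58 in vehicle mice and of 0.08 to 0.31 in the treated groups. For such members the pooled spread can understate the uncertainty of a comparison with vehicle.

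The members, roles, marker and pathway lists were chosen with earlier results of these data known. Given in full were the 6 passing members with the largest change in each tissue with BI 456906 30 nmol/kg, the 6 likewise with semaglutide 100 nmol/kg, and Isg15, Irf7, Stat2, Ifit1, Irf9 and Irf1. The other members with values were named after their values were seen. Some items are not reported here.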

Additional observations from a re-analysis of the deposited data

Results flagged for a closer look

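A mouse was set apart where its gap to the next mouse, as a share of the range of the 6 mice (Dixon's ratio), exceeded the 95% limit. Chance does this in about 1 of 20 groups, and it was so in 17 of 287 combinations of member and group in liver and in 37 of 287 in eWAT. In liver with BI 456906 10 nmol/kg, mouse 59 was set apart above the others in the level of the 41 members (ratio 0.726) and in Ifit3b (0.811), Ifit1 (0.781), Isg15 (0.735), Oasl1 (0.713) and Ifit3 (0.686). Mouse 70 (BI 456906 30 nmol/kg) was apart in Ifit1 (0.781), and mouse 74 (semaglutide 20 nmol/kg) was low in Psmb9 (0.657). In eWAT mouse 17 (BI 456906 10 nmol/kg) was high in Irf1 (0.705), Gbp2 (0.699), Iigp1 (0.692), Gbp7 (0.681) and Gbp3 (0.672), and mouse 18 of that group was low in Isg15 (0.711). Mouse 40 (semaglutide 100 nmol/kg) was high in Isg15 (0.709), Irf9 (0.696), Stat2 (0.694) and Irf1 (0.69), and its neutrophil markers summed to 461 TPM. Mouse 42 of that group was low in Irf7 (0.728). Mouse 35 (semaglutide 20 nmol/kg) was low in Irf9 (0.666), and mouse 20 (BI 456906 20 nmol/kg) was high in Ifit3b (0.631). Vehicle mice 1 and 3 were not set apart by this ratio in eWAT, because it looks for 1 distant mouse and there were 2.

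The change differed between liver and eWAT (interaction, limma/voom, FDR at most 0.05) in 15 cases. Liver minus eWAT, BI 456906 30 nmol/kg gave -1.24 for Oasl1, -1.13 for Ifit1, -0.97 for Rsad2, -0.95 for Oasl2, -0.87 for Ifit3, -0.82 for Ifit3b, -0.72 for Irf7, 0.41 for Stat2, 0.42 for Dtx3l and 0.45 for Parp9 on the log2 scale. Semaglutide 100 nmol/kg gave -1.28 for Oasl1, -0.84 for Oasl2, 0.60 for Dtx3l, 0.64 for Parp9 and 1.72 for Iigp1.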

How the results depend on the processing

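No paired analysis was possible because the library numbers are different in every group. Whole reads were recovered for 100% of the values. Of the alternatives with all mice, RLE factors moved no count of passing members by over 1.5 times. In eWAT the count depended on the test. On the recovered reads edgeR's quasi-likelihood test passed 10 and 22 members with BI 456906 20 and 30 nmol/kg, 15 and 19 with the 2 semaglutide doses and 18 for the slope over dose, and DESeq2 passed 4 with BI 456906 3 nmol/kg, 13, 22, 18, 22 and 19. Without a filter there were 0 with BI 456906 20 nmol/kg and 4 for the slope, and semaglutide 20 nmol/kg gave 3. Library size alone and limma on TPM with either pseudocount gave 3 with semaglutide 20 nmol/kg, and quality weights gave 11 for the slope. Without vehicle mice 1 and 3 there were 0 with BI 456906 20 nmol/kg, 3 with 30 nmol/kg, 2 and 6 with semaglutide and 3 for the slope, and without mouse 17 as well 0, 4, 2, 7 and 3. Those mice left out, the difference between tissues passed in 16 and 10 members, where 41.5% and 32.9% of all genes passed.

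In liver quality weights gave 2 and 16 members at the BI 456906 doses of 3 and 10 nmol/kg, and 27 at semaglutide 20 nmol/kg. With 10 nmol/kg no filter and limma on TPM gave 5, and with 30 nmol/kg limma on TPM gave 15. For BI 456906 against semaglutide at 20 nmol/kg the count was 0 with library size alone, no filter, limma on TPM and mice 49, 59 and 61 left out, 2 with edgeR, 8 with DESeq2 and 12 with quality weights. Those 3 mice left out, 3 nmol/kg passed 1. The cause of these changes was not tested. In both tissues the shares of all genes under the other tests, filters and weights are not given here. No count from them is therefore read as a result about the members.

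With each mouse left out in turn, liver counts were 0 to 1, 4 to 9, 8 to 13 and 19 to 25 from the lowest to the highest BI 456906 dose, 9 to 16 and 13 to 19 at the semaglutide doses, 0 to 6 between the compounds at 20 nmol/kg and 14 to 23 for the slope. In eWAT they were 0 to 2 with BI 456906 20 nmol/kg, 5 to 19 with 30 nmol/kg, 3 to 9 and 7 to 14 with semaglutide and 4 to 9 for the slope. Of the named members, 5 values near 0 changed sign, none passing, with these ranges. They were Irf9 in liver with BI 456906 30 nmol/kg (-0.068 to 0.025), and in eWAT Ifit1 with 30 nmol/kg (-0.086 to 0.21) and, with semaglutide 100 nmol/kg, Irf7 (-0.085 to 0.10), Stat2 (-0.21 to 0.00057) and Irf9 (-0.12 to 0.080). With 6 mice a group and a spread of this size, changes of members as variable as Iigp1 in eWAT are known only to within about their interval.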
